A study of Mus musculus with 4 samples.

Results

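The bone morphogenetic protein (BMP) ligands, antagonists and Id target genes examined here are Bmp2, Bmp4, Bmp6, Bmp7, Id1, Id2, Id3, Id4, Fst and Grem1, a list of 10 named genes among the 18193 named on the array. They were read through the 17 probe sets, of 45037 tested, that the platform annotation assigns to one of these genes alone. Expression was measured on whole-genome mouse arrays in tumour epithelial cells of skin squamous cell carcinomas raised with chemicals. Live cells that carried Epcam but not CD45 (leukocytes), CD31 (endothelium) or CD140a (fibroblasts) were split into Sox2-GFP-positive cells (n = 2 arrays) and Sox2-GFP-negative cells, the control (n = 2 arrays). All 4 arrays are of malignant tumours, and the series text gives 2 carcinomas from 2 mice as their source. The sources used here do not give the strain, age, carcinogen or the allele behind the Sox2-GFP reporter. With 2 arrays per group, the spread behind every value is poorly known, and p-values measure only the spread between these samples.

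BMPs are secreted ligands of the TGF-beta superfamily. They bind pairs of type I and type II receptor kinases, which phosphorylate Smad1, Smad5 and Smad9, and these enter the nucleus with Smad4. The Id genes are classic direct targets of these Smads, and Id proteins bind and hold back E proteins and related helix-loop-helix transcription factors. Gremlin 1 and follistatin bind ligands outside the cell and keep them from their receptors, follistatin acting above all on activins. In skin, BMP signalling is known for holding hair follicle stem cells quiescent and for promoting differentiation.

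No member probe set passed the test between the groups: 0 of 17 had an adjusted p under 0.05 in limma, beside 0% of all probe sets, and the lowest adjusted p among them was 0.226. Over all probe sets 3349 were higher and 2976 lower at an unadjusted p under 0.05. The 3 Id4 probe sets and Grem1 lay furthest below the negative cells. Their log2 differences (positive minus negative) were -1.87, -1.81 and -1.16 for Id4 and -1.90 for Grem1. Bmp2 and 1 of the 2 Fst probe sets stood above the negative cells by 1.06 and 1.07. Bmp7, Id1, Id2 and Id3 had smaller differences, from -0.48 on 1 Id2 probe set to 0.12 on 1 Bmp7 probe set. An unadjusted p under 0.05 was reached by 2 member probe sets, both of Id4 and both lower, where 6.61% of all probe sets were lower by that measure and 7.44% were higher. The median over all probe sets was 0.07. Scaling the arrays to the bacterial spike-in transcripts raised every difference by 0.79 and thereby turned Bmp6, Id1, Id2 and 2 Bmp7 probe sets to positive values, while Id4 and Grem1 stayed negative.

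The 250 bases before the annotated start of 3 Id genes and of Grem1 are shown because Id4 and Grem1 had the largest differences while Id2 and Id3 had smaller ones. They are RefSeq sequences of build GRCm38.p6, 5′ to 3′ on the gene's strand, with the GC-rich Smad motif GGCGCC, which reads the same on both strands, in capitals.
Id4, chr13:48260866-48261115, plus strand: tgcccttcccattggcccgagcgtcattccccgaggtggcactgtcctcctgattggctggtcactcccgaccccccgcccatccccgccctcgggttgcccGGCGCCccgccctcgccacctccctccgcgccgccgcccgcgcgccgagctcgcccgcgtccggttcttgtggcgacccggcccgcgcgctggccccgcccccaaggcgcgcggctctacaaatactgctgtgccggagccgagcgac
Id2, chr12:25096093-25096342, minus strand: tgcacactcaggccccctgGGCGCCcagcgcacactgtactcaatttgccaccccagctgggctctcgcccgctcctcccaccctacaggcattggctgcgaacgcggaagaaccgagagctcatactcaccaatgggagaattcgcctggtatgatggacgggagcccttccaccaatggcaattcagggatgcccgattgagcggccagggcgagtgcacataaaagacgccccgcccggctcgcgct
Id3, chr4:136143572-136143821, plus strand: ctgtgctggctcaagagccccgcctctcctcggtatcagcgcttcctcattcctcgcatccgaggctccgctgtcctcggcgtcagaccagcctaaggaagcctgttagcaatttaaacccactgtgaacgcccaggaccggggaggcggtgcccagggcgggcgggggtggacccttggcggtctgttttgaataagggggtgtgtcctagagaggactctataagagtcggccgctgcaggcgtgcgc
Grem1, chr2:113758649-113758898, minus strand: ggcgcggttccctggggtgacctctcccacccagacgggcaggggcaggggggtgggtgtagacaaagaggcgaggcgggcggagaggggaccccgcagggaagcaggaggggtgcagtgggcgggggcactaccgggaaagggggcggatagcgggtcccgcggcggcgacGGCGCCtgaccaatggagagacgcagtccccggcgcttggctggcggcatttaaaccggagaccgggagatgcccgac
The motif occurred 1 time before Id4, starting 148 bases upstream, 1 time before Id2 at 231 bases and 1 time before Grem1 at 78 bases, and no match was found in the Id3 window. It was present in 9.59% of the 32851 promoter windows of that length. The shorter Smad core GTCT, or AGAC on the other strand, was present in 82.9% of windows, with 0 matches before Id4, 1 before Id2, 2 before Id3 and 4 before Grem1. These windows are rich in G and C, at 75.6% for Id4, 62.8% for Id2 and for Id3 and 72.0% for Grem1, against a median of 52.4% over all windows. Windows were also available for Bmp4 and Bmp6, with 0 GGCGCC each, which makes 6 of the 10 genes. The promoter sequences used held no entry for Bmp2, Bmp7, Id1 and Fst, so those promoters were not searched. A match is a run of letters and was not tested as a binding site.

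**Figure D1:**
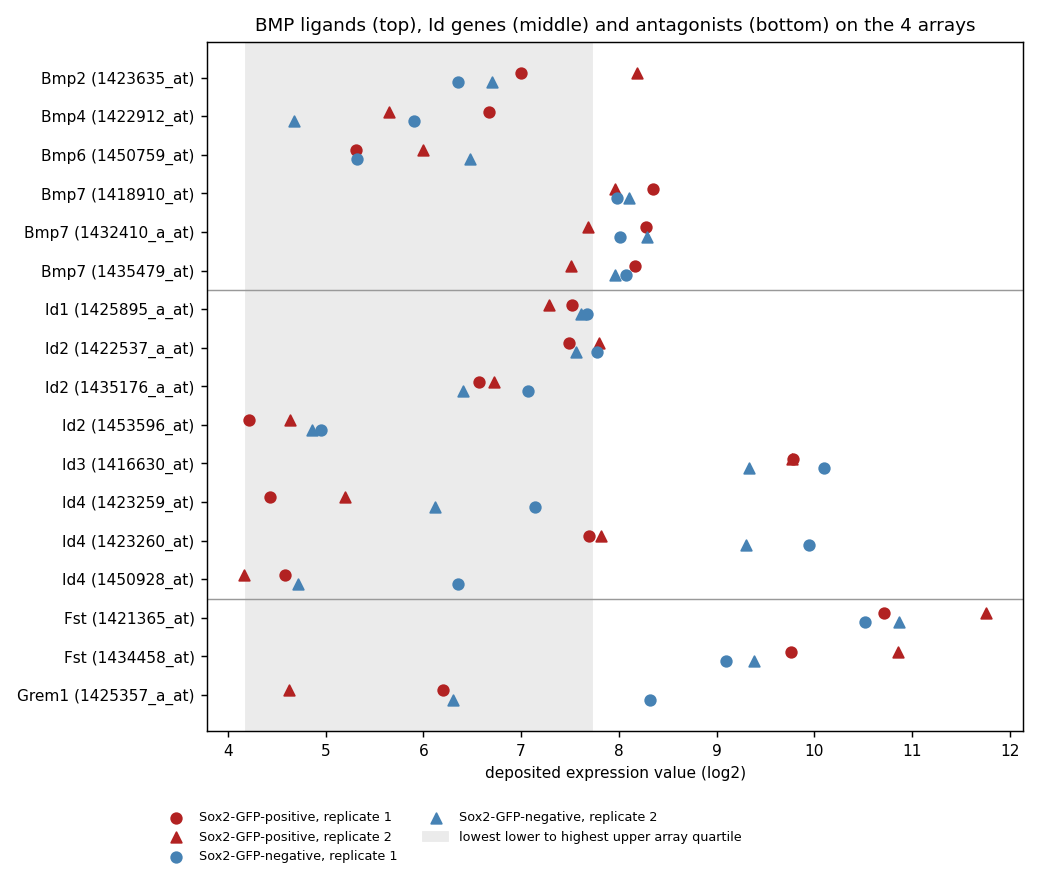
Deposited log2 value (x axis) of each of the 17 member probe sets (y axis) on the Sox2-GFP-positive arrays (red) and Sox2-GFP-negative arrays (blue); circles are replicate 1 and triangles replicate 2, and the grey band runs from the lowest lower quartile (4.19) to the highest upper quartile (7.73) of the arrays. The red points of all 3 Id4 probe sets lie left of the blue ones, and those of Bmp2 lie right of them.

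Among the ligands, Bmp2, which acts on keratinocytes and is made by them, read 7.00 and 8.19 in positive and 6.36 and 6.70 in negative arrays. Both positive arrays were above both negative arrays, by 0.30 between the nearest, and positive replicate 2 stood clear of the other 3 arrays. The difference was 1.06 ± 0.44 (SE, n = 2 per group), a 2.09-fold higher level, with a 95% interval of -0.11 to 2.24 and an adjusted p of 0.386 in limma. Within replicate 1 it was 0.64 and within replicate 2 it was 1.49, and without positive replicate 2 it was 0.47.

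Bmp4, a ligand close in sequence to Bmp2 and made in skin mainly by mesenchymal cells, read 6.67 and 5.64 in positive and 5.91 and 4.68 in negative arrays. The groups overlapped, because positive replicate 2 lay below negative replicate 1. Within each replicate number the positive array was the higher one, by 0.77 and by 0.97. The difference of means was 0.87 ± 0.56 (SE; limma adjusted p = 0.537, 95% interval -0.61 to 2.34), and without negative replicate 2 it was 0.25.

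Bmp6, which in the epidermis belongs to the differentiating layers, read 5.31 and 6.00 against 5.32 and 6.48. The arrays of replicate 2 were higher than those of replicate 1 in both groups, and the groups overlapped. Its difference was -0.25 ± 0.48 (SE; limma adjusted p = 0.846), and its interval reached from -1.51 to 1.02, so a 2-fold difference either way lies inside it.

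Bmp7, a ligand of epithelia and kidney, was measured by 3 probe sets. The probe set 1418910_at read 8.35 and 7.96 against 7.98 and 8.10, and 1432410_a_at read 8.27 and 7.69 against 8.01 and 8.29. On 1435479_at the values were 8.17 and 7.51 against 8.07 and 7.96. Groups overlapped on all 3, with differences of 0.12, -0.17 and -0.18 and adjusted p of 0.805 to 0.836 in limma. All 3 had the positive array above the negative one in replicate 1, by 0.10 to 0.37, and below it in replicate 2, by 0.14 to 0.60. Their intervals lay within -0.91 and 0.69.

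Id4, whose protein is the Id family member best known from neural and mammary progenitors, was lower in the positive arrays on each of its 3 probe sets. On 1423260_at it read 7.70 and 7.82 in positive and 9.95 and 9.30 in negative arrays. The gap between the nearest arrays was 1.48, the widest of any member, and the positive arrays differed from each other by only 0.12. The difference was -1.87 ± 0.28 (SE, n = 2 per group; unadjusted p = 0.00155 and adjusted p = 0.226 in limma), a 3.65-fold lower level, with a 95% interval of -2.60 to -1.14. Within replicate 1 it was -2.25 and within replicate 2 it was -1.48, and it stayed between -2.19 and -1.54 when any 1 array was left out.

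A second Id4 probe set, 1423259_at, read 4.43 and 5.20 against 7.14 and 6.12, with a difference of -1.81 ± 0.46 (SE; limma unadjusted p = 0.0129, adjusted p = 0.269). Here the positive arrays were dim, at the 29.4th and 45.5th percentile of their array, and the ratio was 3.51-fold. The third, 1450928_at, read 4.58 and 4.17 against 6.36 and 4.72. Only negative replicate 1 was clearly above the dim part of its array on it, and the difference of -1.16 ± 0.59 (SE; limma adjusted p = 0.449) was -0.34 without that array. The 3 probe sets carry the same source accession, so they are readings of 1 source sequence and not independent.

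The other Id genes showed no such difference. Id1, the standard reporter gene of BMP signalling, read 7.52 and 7.28 against 7.68 and 7.61. Both positive arrays were below both negative arrays, but by 0.09 at the nearest, and the difference was -0.24 ± 0.19 (SE; limma adjusted p = 0.599) with an interval of -0.74 to 0.25. Id3, which responds to BMP in many cell types, read 9.78 and 9.78 against 10.10 and 9.33. The equal positive arrays lay between the negative ones, and the difference was 0.06 ± 0.31 (SE; limma adjusted p = 0.948; interval -0.75 to 0.87).

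Id2, which also answers to other pathways, had 3 probe sets that did not rank the arrays alike. On 1422537_a_at the values were 7.49 and 7.80 against 7.77 and 7.56, and on 1435176_a_at 6.57 and 6.73 against 7.07 and 6.40. Both overlapped, with differences of -0.02 and -0.08. On the dim probe set 1453596_at the positive arrays read 4.22 and 4.63 and the negative arrays 4.95 and 4.86, without overlap, for a difference of -0.48 ± 0.22 (SE; limma adjusted p = 0.417).

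**Figure D2:**
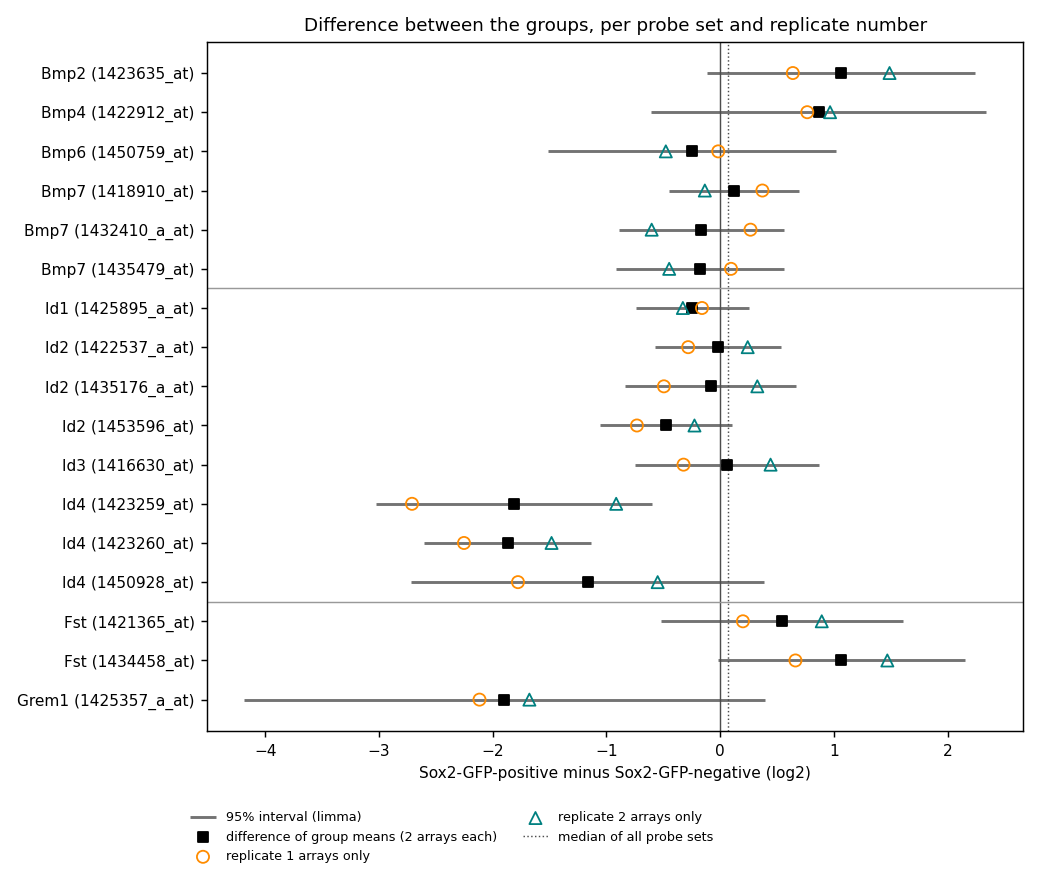
Sox2-GFP-positive minus Sox2-GFP-negative log2 difference (x axis) of each member probe set (y axis): the square is the difference of the means of 2 arrays each, the line its 95% interval in limma, the circle the difference within replicate 1 and the triangle that within replicate 2; the dotted line is the median of all probe sets, 0.07. The intervals of 2 Id4 probe sets, -3.02 to -0.60 and -2.60 to -1.14, do not reach 0, while those of the other 15 do.

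Of the antagonists, Fst, which encodes follistatin, was bright on both probe sets. On 1434458_at it read 9.76 and 10.85 in positive and 9.10 and 9.38 in negative arrays. Positive arrays were above negative ones by 0.37 at the nearest, and the difference was 1.07 ± 0.41 (SE; limma adjusted p = 0.363), a 2.09-fold higher level with an interval of -0.02 to 2.15. On 1421365_at it read 10.72 and 11.76 against 10.52 and 10.87, where positive replicate 1 lay below negative replicate 2, and the difference was 0.55 ± 0.40 (SE; limma adjusted p = 0.584). Positive replicate 2 was the highest array on both, as it was for Bmp2, and without it the differences were 0.52 and 0.03.

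Grem1, which encodes gremlin 1, an inhibitor of Bmp2, Bmp4 and Bmp7 made chiefly by fibroblasts, read 6.20 and 4.63 in positive and 8.32 and 6.31 in negative arrays. The groups did not overlap, but the gap was 0.10, since negative replicate 2 and positive replicate 1 nearly met. The difference was -1.90 ± 0.86 (SE; limma adjusted p = 0.415), a 3.72-fold lower level with an interval of -4.18 to 0.39. Within replicate numbers it was -2.12 and -1.68, and without negative replicate 1 it was -0.89.

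Fibroblast and pericyte markers were ordered on the 4 arrays as Grem1 was. Of 12 such genes (Pdgfra, Pdgfrb, Col1a1, Col1a2, Col3a1, Dcn, Lum, Dpt, Mfap5, Postn, Thy1 and Rgs5), each by its brightest probe set, 12 of 12 were lower in both positive arrays. Over all 24 of their probe sets 22 were, beside 18.4% of all probe sets tested, and a Pdgfra and a Dcn probe set overlapped. The summed linear intensity of the 12 genes was 17289 and 2168 in positive and 52039 and 24648 in negative arrays, although CD140a, encoded by Pdgfra, had been gated out. Only Dpt in positive replicate 2 was under the lower quartile of its array. Grem1 stood 1.58 higher in positive replicate 1 than in positive replicate 2, and 2.01 higher in negative replicate 1 than in negative replicate 2, and Bmp4 stood 1.03 and 1.23 higher. For Id4 those 2 gaps were -0.12 and 0.65 on 1423260_at, -0.77 and 1.02 on 1423259_at, and 0.41 and 1.64 on 1450928_at. The last of these probe sets had the same order of arrays as Grem1 and the fibroblast markers, and the other 2 did not. Bmp4 did not have that order either: within each replicate number it was higher in the positive array, by 0.77 and 0.97. The part of these markers in any of the differences was not tested, and fewer cells of a type cannot be told apart from less RNA per cell.

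**Figure D3:**
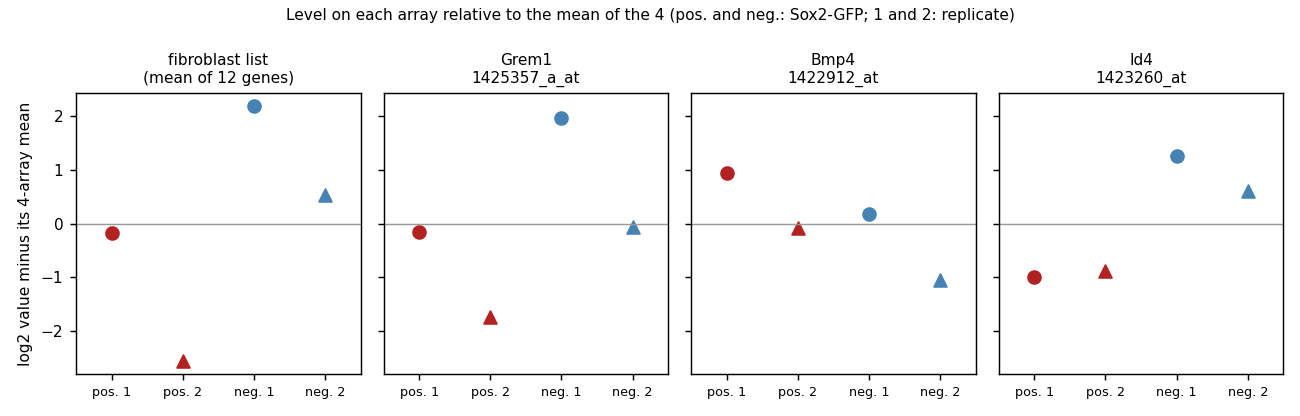
Log2 value minus its mean over the 4 arrays (y axis) for the mean of 12 fibroblast and pericyte genes, Grem1, Bmp4 and Id4, on each array (x axis; pos. and neg. are Sox2-GFP-positive and Sox2-GFP-negative, circles replicate 1, triangles replicate 2). The fibroblast mean, 8.67 and 6.29 in positive and 11.03 and 9.38 in negative arrays, and Grem1 have the same order of arrays, while the positive values of the Id4 probe set shown (7.70 and 7.82) lie side by side. Bmp4 has another order, with positive replicate 1 highest.

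The other markers, each gene by its brightest probe set, are given beside the share of all probe sets. Of all probe sets 18.4% were lower, and 29.7% higher, in both positive arrays. Endothelial genes summed to 450 and 288 in positive and to 1702 and 453 in negative arrays, and 3 of 8 were lower in both positive arrays. Leukocyte genes summed to 576 and 462 against 1552 and 525 (2 of 9 lower). In the endothelial and leukocyte sums only negative replicate 1 stood apart. Melanocyte and Schwann cell genes summed to 330 and 233 against 662 and 476 (4 of 6 lower). Proliferation genes, 7 of 7 of which were higher in both positive arrays, summed to 9448 and 9679 against 6319 and 7227. Over all probe sets of these genes 11 were wholly higher and 1, a dimmer one of Top2a, wholly lower. The 6 keratinocyte and sort genes were bright, averaging 11.64 to 12.11 per array, with 3 of 6 wholly lower and 2 wholly higher in the positive arrays. Krt5 read 13.24 to 13.32, while Cdh1, at 9.64 and 10.36 against 10.74 and 11.18, and Krt15, at 10.47 and 9.48 against 10.73 and 10.93, were 1.95-fold and 1.81-fold lower, and none of the list passed (lowest limma adjusted p = 0.328). Sox2 itself read 3.50 and 3.27 in positive and 3.14 and 3.43 in negative arrays, near the array 5th percentiles of 3.34 to 3.37, so its transcript gave no check of the sort.

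Counted without a test, the positive arrays lay wholly above the negative arrays on 2 of the 17 member probe sets (Bmp2 and 1 of Fst), where 29.7% of all probe sets did so, and wholly below on 6 (3 of Id4, 1 each of Id1, Id2 and Grem1), where 18.4% did. By at least 1 log2 unit the groups were apart on 1, the Id4 probe set 1423260_at, against 1.37% of all probe sets that were lower and 0.462% that were higher by that much. The median difference of the 17 was -0.17. Under the spike-in scaling, where 92.2% of all probe sets had a positive difference, 11 member probe sets lay wholly above and 1, of Id4, wholly below. The share of all probe sets without overlap was not counted under that scaling, so nothing about the members is read from this split.

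With the replicate number as a block in limma, which compares the arrays of the same number, 0 of 17 passed, beside 0% of all probe sets, and the lowest adjusted p among members was 0.122, for Grem1. At an unadjusted p under 0.05 that fit had 3 members higher (Bmp2, Bmp4 and 1 of Fst; 6.89% of all probe sets) and 4 lower (3 of Id4, and Grem1; 8.87% of all). When only the brightest probe set of each gene was kept and the block was used, Grem1 was called lower (limma adjusted p = 0.0446), as 0.868% of the 18193 genes were, and Id4 was not (0.0637). Without the block Grem1 did not pass in that table of genes either (adjusted p = 0.378). Over all alternatives the limma adjusted p of Grem1 ran from 0.0446 to 0.830, and that of Id4 on 1423260_at from 0.0427 to 0.575, the lower end being the spike-in scaling.

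Beyond the members, 53 of 59 listed pathway genes were measured, with 117 probe sets. None of the 117 passed (lowest adjusted p = 0.278 in limma), beside 0% of all probe sets. On 31 the positive arrays lay wholly above and on 23 wholly below the negative arrays, where 29.7% and 18.4% of all probe sets did so. An unadjusted p under 0.05 in limma was reached by 3 higher and 6 lower probe sets, beside 7.44% and 6.61% of all. The median difference of the 117 was 0.07, equal to that of all probe sets. Up to 3 genes of each list are named for the widest gap between the groups; Bmpr1a, Smad6, Nog, Sostdc1, Inhba, Inhbb, Dlx3, Hey1, Atoh8, Gata3, Tgfbr3 and Eng were chosen after their values were seen.

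The 35 receptor probe sets had a median difference of -0.07 and ran from -1.30 to 0.70. Tgfbr3 was wholly below on both probe sets (-1.30 and -1.10, limma adjusted p = 0.403 and 0.380), and Eng overlapped on both (-1.13 and -0.43). Bmpr1a, the main type I BMP receptor of skin, had 6 probe sets with differences from -0.63 to 0.31. Among type II receptors, Acvr2a read 8.11 and 8.83 against 9.16 and 9.25 on its brighter probe set, a difference of -0.74 ± 0.29 (SE; limma adjusted p = 0.370). Bmpr2 read 9.50 and 9.69 against 10.11 and 10.03 on 1434310_at, while 9.64 and 9.88 against 9.57 and 9.77 on 1419616_at overlapped. Rgma, a BMP co-receptor, read 6.31 and 6.15 against 6.75 and 6.85 (adjusted p = 0.312 in limma). On this list of 35, 4 were wholly above and 7 wholly below, beside 29.7% and 18.4% of all probe sets, and 24 overlapped.

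Of the intracellular mediators, Smad7, an inhibitory Smad induced by both TGF-beta and BMP signals, read 8.80 and 9.52 against 8.11 and 8.35 on its bright probe set. Both positive arrays were higher, by 0.93 ± 0.30 (SE; limma adjusted p = 0.318), or 1.90-fold. Its dim probe set, at 4.98 and 5.37 against 5.18 and 4.93, overlapped. Smad6, the inhibitory Smad more specific to BMP, read 5.26 and 5.51 against 5.17 and 5.34, with overlap. Smad1 on 1416081_at was lower by 0.34 and Smad5 on 1433641_at higher by 0.24 on the log2 scale, and neither passed (adjusted p = 0.479 and 0.606 in limma). Over the list of 18 probe sets the median was 0.03.

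Other extracellular antagonists held the largest pathway difference. Fstl1, a follistatin-like glycoprotein of mesenchymal cells, read 8.95 and 6.05 against 11.52 and 9.89 on 1448259_at, 9.23-fold lower (-3.21 ± 1.12 SE; limma adjusted p = 0.336). The array order was that of the fibroblast markers and of Grem1, and in the table of genes with the block it was the 1 pathway gene called (adjusted p = 0.0353). Nbl1, a secreted relative of gremlin, read 5.88 and 5.81 against 6.91 and 6.42 (adjusted p = 0.287 in limma). Twsg1, which modulates BMP binding to chordin, read 9.29 and 9.53 against 9.00 and 8.93 on 1450388_s_at. Nog, which encodes noggin, read 5.06 and 4.48 against 4.73 and 4.50, below or just under the array medians of 5.49 to 5.61. Sostdc1, a BMP and Wnt inhibitor of skin appendages, was bright, at 10.58 and 10.54 against 10.40 and 10.32 on 1460250_at, a difference of 0.20, and overlapped on its other probe set.

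Of the homeobox genes known as BMP targets, Dlx5 and Msx1 lay above the negative cells and Dlx3 overlapped. Dlx5 read 9.52 and 8.95 against 8.32 and 7.60, a difference of 1.27 ± 0.35 (SE; limma adjusted p = 0.278), or 2.42-fold. Msx1 read 6.01 and 7.40 against 5.11 and 5.46 on 1448601_s_at, 2.68-fold higher (1.42 ± 0.50 SE; limma adjusted p = 0.340), and 6.85 and 7.50 against 6.32 and 6.63 on its other probe set. Msx2 read 5.80 and 5.68 against 5.38 and 5.27 on 1449559_at, and its other probe set overlapped near the floor. On this list of 10 probe sets, 4 were wholly above and 1, of Gata3, wholly below, beside 29.7% and 18.4% of all probe sets. The median was 0.46, and the groups overlapped on the 5 of Dlx3, Hey1, Atoh8 and the second Msx2 probe set.

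E proteins, the partners that Id proteins bind, went both ways. Tcf3, which encodes E2A, was wholly above on all 3 probe sets, among them 7.69 and 7.54 against 7.20 and 7.21 on 1452542_x_at (limma adjusted p = 0.394). Tcf12, which encodes HEB, read 4.06 and 4.15 against 5.39 and 4.70 on the dim probe set 1439619_at but 9.28 and 9.17 against 8.83 and 8.69 on the bright 1427670_a_at, so its probe sets disagreed. Tcf4 read 7.83 and 8.52 against 9.63 and 8.55 on 1416723_at, with a gap of 0.03 and negative replicate 1 standing apart. Of its other probe sets, the dim 1416725_at was wholly above and the rest overlapped. Of the other ligands, Gdf5, Bmp10 and Bmp15, those with the widest gaps, were dim and read between 3.41 and 4.70 on the probe sets with those gaps. Inhba, which encodes the activin A subunit that follistatin binds, was bright on 1422053_at, at 8.99 and 9.58 against 9.16 and 8.64, with overlap. Inhbb, which encodes the activin B subunit, read 7.43 and 7.79 against 8.79 and 7.00 on 1426858_at and also overlapped.

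**Figure D4:**
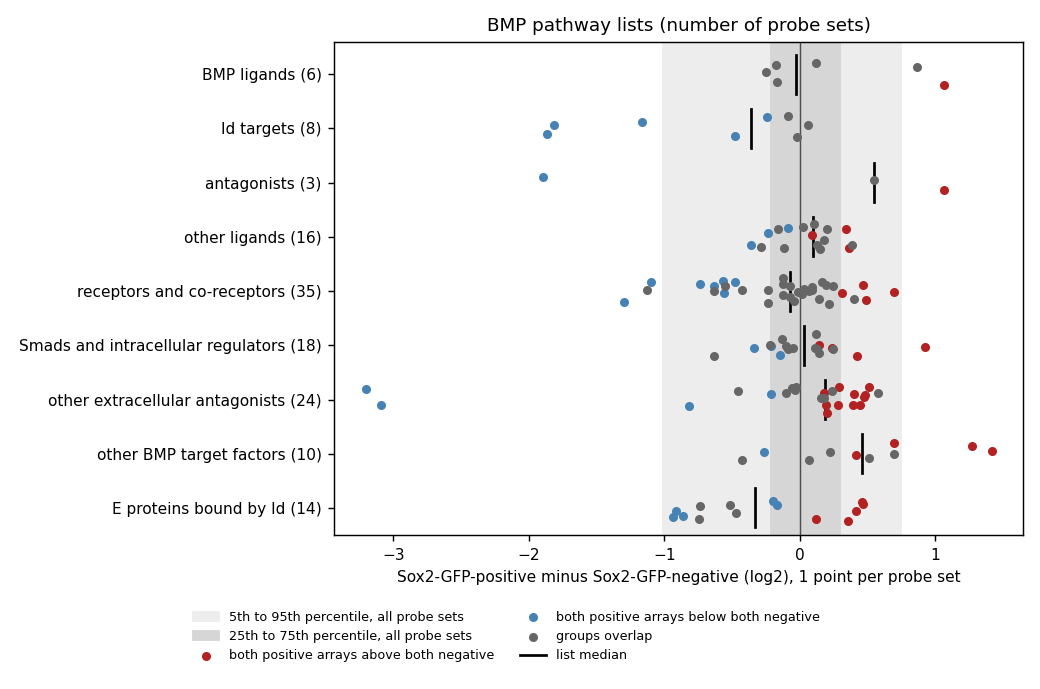
Positive minus negative log2 difference (x axis) of every probe set of the member and pathway lists (y axis, number of probe sets in brackets); red points have both positive arrays above both negative arrays, blue points below, grey points overlap, black bars are list medians, and the shaded bands span the 5th to 95th (-1.01 to 0.75) and 25th to 75th (-0.21 to 0.30) percentiles of all probe sets. The 3 Id4 probe sets, Grem1, the 2 Fstl1 probe sets, 2 of Tgfbr3 and 1 of Eng lie left of the wider band, and Bmp2, Bmp4, 1 Fst probe set, Smad7, Dlx5 and 1 Msx1 probe set right of it.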

How the data were processed

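The authors deposited 1 table of log2 values, 1 column per array, for 45101 probe sets; the log2 scale was read from the values (2.73 to 14.36). Per the labels' protocols, 100 ng of total RNA per sample was spiked with bacterial transcripts, amplified and biotin-labelled. R 2.14.0 is the one tool listed, per the submitters' processing notes; the sources used here do not give background correction, normalization or summary. No detection calls were used, and precision is limited by the number of arrays.

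Groups and replicate numbers came from the titles. After 64 control probe sets were left out, limma (3.58.1, in R 4.3.3, lmFit and eBayes) was fitted to all 45037 probe sets. Group was the only term (2 residual and 2.56 prior degrees of freedom), and the threshold was a Benjamini-Hochberg adjusted p under 0.05. The fit was also run on simulated data in which every probe set had the same spread, unlike in these arrays. Genes were named from probe sets with 1 symbol (34945; 932 had several and 9160 none). That a number marks a tumour is read from the series text and not stated; across probe sets the replicate 1 minus replicate 2 differences of the groups correlated with r = 0.18. An exact test of 2 against 2 arrays cannot go below p = 0.333. Named genes were all member probe sets, pathway probe sets past the threshold or else up to 3 genes per list with the widest gap, and the sort genes; further pathway genes, listed in the report, and the markers given singly were added after values were seen. Members and lists were chosen with earlier results of these data known. The alternatives were the replicate block, 3 scalings, a filter on dim probe sets, 1 probe set per gene, a trended prior, a threshold of 0.1 and leaving out each array; the block with 1 probe set per gene was added after seeing the data.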

Additional observations from a re-analysis of the deposited data

How the results depend on the processing

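The log2 differences of Bmp2, Bmp4, both Fst probe sets, Grem1 and the 3 Id4 probe sets kept their direction under every alternative that could be run. No member was called with the replicate block (0 of 17), quantile normalization, equal medians, without dim probe sets, with a trended prior, at 0.1 or without any 1 array. Spike-in scaling (24 bacterial poly-A probe sets) raised every difference by 0.79 and the median of all to 0.86; it called 27026 probe sets, 6 of them members (5 higher, 1 lower, Id4) and 63 of the pathway, and turned Bmp6 to 0.54, Bmp7 to 0.62 and 0.61, Id1 to 0.55 and Id2 to 0.77, 0.71 and 0.31. By construction that scaling leaves every difference unchanged relative to the median of all probe sets. It shifts each array separately, so spreads, p-values and the overlap of the groups did change. With 1 probe set per gene the groups of 4 of 10 members did not overlap, fewer because fewer probe sets are counted. When the replicate block was added, 171 of the 18193 genes were called, 1 of them a member (Grem1) and 1 of the pathway. Leaving out 1 array put the member probe sets without overlap at 11 to 13, as 3 arrays overlap less often. The share of all genes or probe sets without overlap was not counted for these settings, so nothing about the members is read from these counts of overlap. Quantile normalization turned Id3 to -0.020 and equal medians turned Id2 (1422537_a_at) to 0.062. Without 1 array, differences that changed sign ran from -0.83 to 0.33 for Bmp6, from -0.077 to 0.31, -0.46 to 0.13 and -0.51 to 0.15 for Bmp7, from -0.18 to 0.14 and -0.42 to 0.25 for Id2 and from -0.32 to 0.44 for Id3. Dim probe sets only bound a level.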
